A study of Homo sapiens with 19 samples.

Results

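The genes described here are the inhibitors of cyclin-dependent kinases (CDKs) and the D-type cyclins. They were taken as a named list of 10 protein-coding genes of the 20007 in the GENCODE release 44 annotation of hg38: CDKN1A, CDKN1B and CDKN1C of the Cip/Kip family, CDKN2A, CDKN2B, CDKN2C and CDKN2D of the INK4 family, and CCND1, CCND2 and CCND3. For each gene the bases (bp) lying under peaks within 10 kb either side of the transcription start of its canonical transcript were summed in every list, and likewise within 2 kb. The rule itself uses no measured value.

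Progress from G1 into S phase depends on cyclin D with CDK4 or CDK6, which phosphorylate the retinoblastoma protein and so release E2F factors. INK4 proteins bind CDK4 and CDK6 and block their pairing with cyclin D, whereas Cip/Kip proteins bind whole cyclin-CDK complexes, chiefly those of CDK2. In myeloid cells several of these inhibitors rise as dividing precursors leave the cell cycle and mature. Of the marks measured, H3K27ac lies at active promoters and enhancers, H3K4me2 at promoters and enhancers including poised ones, and H3K4me3 mostly at promoters.

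Peaks came from CUT&RUN, in which an antibody guides a nuclease that cuts out the chromatin carrying a mark. All cells were MOLM-13, a human acute myeloid leukaemia line, so every group stands for 1 line. For each of the 3 marks there were 2 libraries of cells given Corin, a compound that inhibits both the demethylase LSD1 and the deacetylases of the CoREST complex, and 2 of cells given the vehicle DMSO, with 24 h of treatment at 0.1 µM. The labels give that dose for the DMSO libraries too, where its meaning is unclear, and nothing in them says that replicates were separate cultures, so p-values measure only the spread between these libraries. The other 7 libraries of the series (4 with all-trans retinoic acid and Corin, 1 against LSD1, 2 with IgG) were not analysed here.

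The 12 lists held 11104 to 41152 peaks each, and of their read depth the labels give only a floor of 5000000 reads per sample. The H3K27ac lists of Corin covered 20.112 and 26.12 Mb and those of DMSO 11.071 and 12.566 Mb. For H3K4me2 the lists of Corin covered 42.168 and 47.375 Mb against 33.435 and 36.562 Mb, and for H3K4me3 15.194 and 15.649 Mb against 14.224 and 14.965 Mb. Longer lists of Corin thus accompany every higher value under Corin reported here. The median change over genes with a peak was 445 bp for H3K27ac, 230 bp for H3K4me2 and 63.5 bp for H3K4me3. When each list was scaled to the same covered length these medians became -27.8, -290.6 and -20.8 bp. Scaled values are therefore given for the members, though not for the other G1/S genes described below. Scaling shortens lengths in every Corin list and extends them in every DMSO list, so equal lengths become lower in Corin by construction. Of 10 myeloid or leukaemic marker genes, 5 (SPI1, CEBPA, FLT3, HOXA9 and MEIS1) had an H3K4me3 peak over the start in both DMSO lists, against 0 of 14 markers of T, B, erythroid, epithelial, liver and nerve cells. MPO and CSF1R, defining genes of granulocyte precursors and monocytes, had no H3K4me3 peak within 10 kb in either DMSO list.

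Promoter sequence was matched for 7 of the 10 genes (all but CDKN1C, CCND1 and CCND2) in RefSeq, build GRCh38.p14. The 250 bases before the start are shown for 3 genes whose H3K27ac was higher in both Corin lists, because the mark reached this stretch to different extents between lists. Capitals mark the GC box (GGGCGG) and the CCAAT box (CCAAT) found on either strand. CDKN2D is at chr19:10568980-10569229 on the minus strand, CDKN1A at chr6:36678464-36678713 on the plus strand and CCND3 at chr6:41941809-41942058 on the minus strand.
CDKN2D: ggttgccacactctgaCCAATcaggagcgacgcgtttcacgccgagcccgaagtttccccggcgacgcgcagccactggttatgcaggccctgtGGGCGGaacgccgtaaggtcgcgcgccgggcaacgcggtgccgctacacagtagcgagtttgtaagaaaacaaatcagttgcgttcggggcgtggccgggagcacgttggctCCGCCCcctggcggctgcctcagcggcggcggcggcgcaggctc
CDKN1A: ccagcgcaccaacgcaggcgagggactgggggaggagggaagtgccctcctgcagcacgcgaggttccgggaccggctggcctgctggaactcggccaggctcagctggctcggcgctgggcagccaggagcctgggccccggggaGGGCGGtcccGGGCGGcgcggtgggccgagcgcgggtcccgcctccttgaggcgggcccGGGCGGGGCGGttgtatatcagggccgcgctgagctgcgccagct
CCND3: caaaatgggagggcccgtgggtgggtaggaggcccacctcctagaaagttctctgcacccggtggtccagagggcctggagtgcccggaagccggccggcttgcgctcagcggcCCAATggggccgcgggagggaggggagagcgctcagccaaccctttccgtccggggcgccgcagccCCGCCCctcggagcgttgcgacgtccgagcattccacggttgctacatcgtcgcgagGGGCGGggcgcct
Over the full 300 bases, which run from 250 before to 50 after the start, CDKN1A and CCND3 hold 4 GC boxes each and CDKN2D 3, with 2 overlapping ones in CDKN1A. All 7 matched genes had at least 1 GC box, as had 45.0% of the 35116 promoters of this length. A CCAAT box was found in 4 of the 7 (CDKN1B, CDKN2C, CDKN2D and CCND3) and in 34.6% of all promoters. The 3 promoters shown were rich in CpG, with 36 at CDKN2D, 29 at CDKN1A and 37 at CCND3 against a median of 14. So were those of CDKN1B with 29, CDKN2A with 26 and CDKN2B with 25, whereas CDKN2C had 11. The E-box CACGTG occurred in 1 of the 7, CDKN2C, and in 7.26% of all promoters. The STAT motif TTCNNNGAA was in none of the 7, and in 7.66% of all.

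Peaks of H3K27ac covered 282 of the 300 promoter bases of CDKN2D in Corin replicate 1 and 0 in the other 3 lists. At CDKN1A they covered 23 and 265 bases in Corin and 0 and 4 in DMSO. The CCND3 window had 153 and 140 bases in Corin and 1 and 300 in DMSO. The CDKN1A start itself was covered in Corin replicate 2 alone, since the nearest peak of Corin replicate 1 began 27 bp after it and those of DMSO 900 and 46 bp after it. The groups overlapped at CDKN2D and CCND3 in this narrow window. H3K4me2 lay over all 300 bases of CDKN1A in each list, and H3K4me3 over all 300 of CCND3.

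In untreated cells the 10 genes fell into 5 patterns by peaks within 2 kb of the start. CDKN1A, CDKN1B, CDKN2C, CCND2 and CCND3 had all 3 marks in both DMSO lists, as did 26.7% of all genes. CDKN2D differed only in having H3K27ac in 1 of the 2 DMSO lists. CCND1 had H3K4me2 and H3K4me3 without H3K27ac, a pattern of 11.9% of genes. CDKN1C had H3K4me2 alone, like 8.91% of genes, and CDKN2A and CDKN2B had no mark, like 36.1%. After Corin, CDKN2D joined the genes with all 3 marks in both lists, which were 37.2% of genes, and the other 9 kept their pattern.

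**Figure D1:**
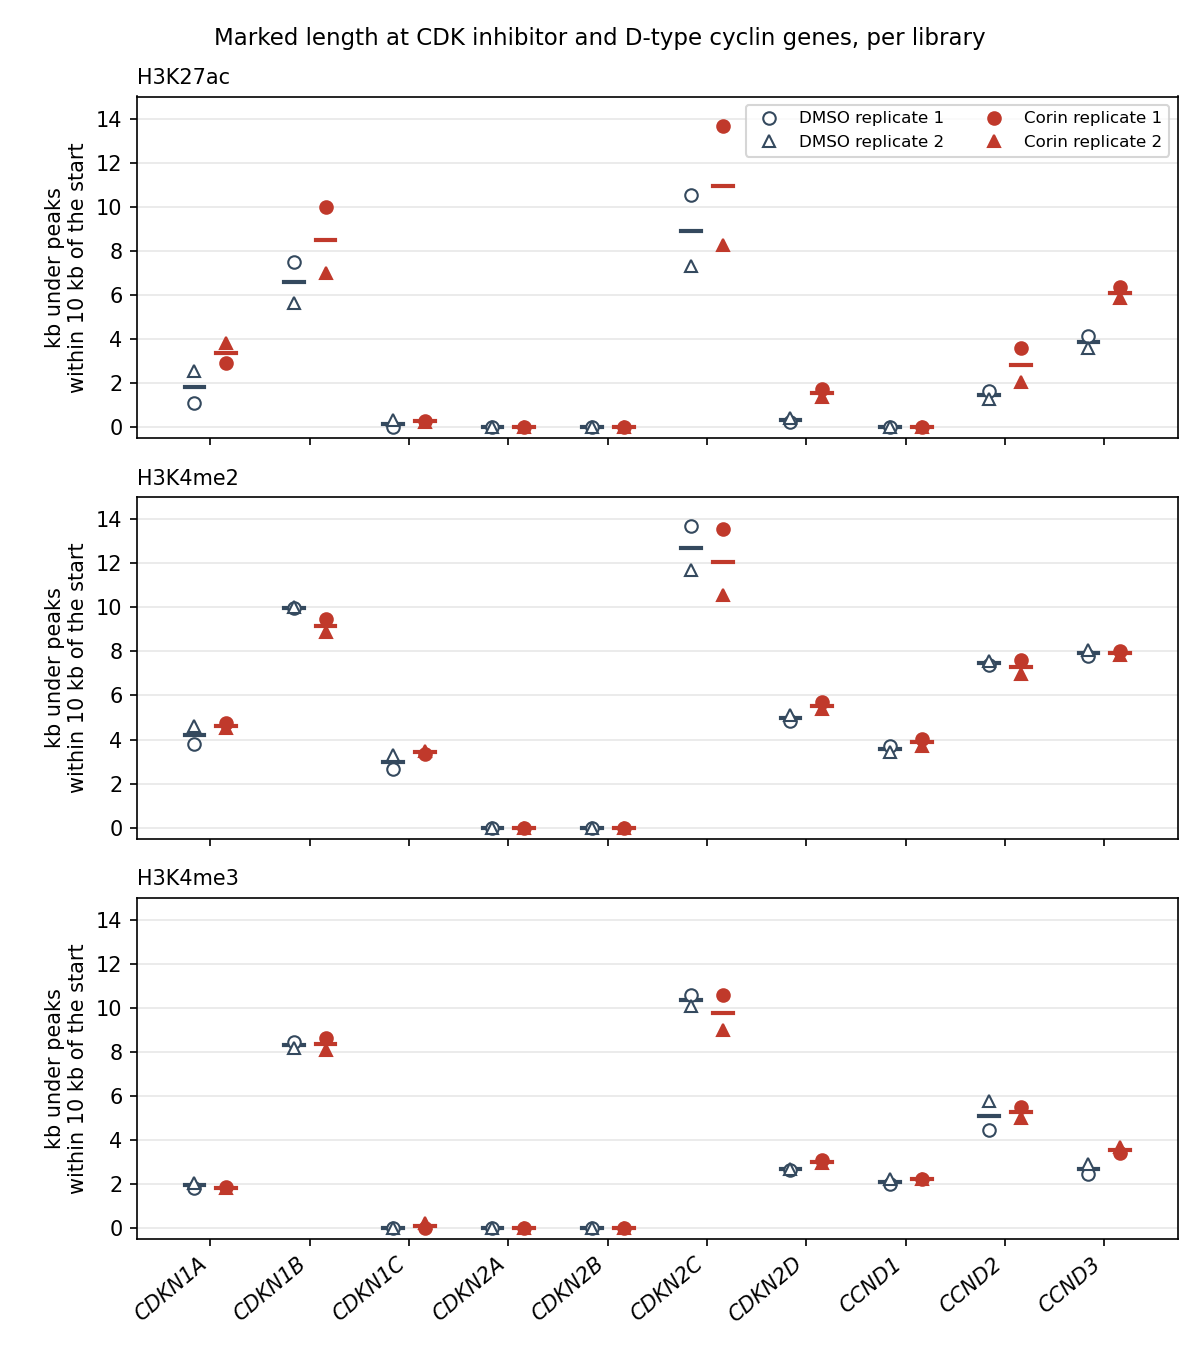
Length under peaks within 10 kb of the start (kb, y axis) for each of the 10 genes (x axis), with 1 panel per mark. Open symbols are DMSO and filled symbols Corin, circles are replicate 1, triangles replicate 2, and bars are means of 2 libraries. In the H3K27ac panel both Corin symbols lie above both DMSO symbols at CDKN1A, CDKN2D, CCND2 and CCND3, and CDKN2A and CDKN2B stay at 0 in all panels.

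H3K27ac covered more sequence in both Corin lists than in both DMSO lists at 4 of the 7 genes with a peak: CDKN1A, CDKN2D, CCND2 and CCND3. The same held for 54.6% of the 10654 genes with a peak, so the count is near that of genes at large. The order was the opposite at 0 of the 7, against 0.591% of genes. With limma and Benjamini-Hochberg adjustment over the 9199 genes tested, no gene passed 0.05 (0.0%), while 2424 genes (26.4%) and 3 of the 7 members had an unadjusted p below it. With the replicate number as a block limma called 1609 genes. The median change over all 10 members was 1274 bp, against 0 bp over all 20007 genes, of which 46.7% had no H3K27ac peak. Of the 10 members 3 had none, and the median over genes with a peak was 445 bp. Within 2 kb the same 4 genes were higher, beside 47.6% of genes. At matched peak number, the top-scoring peaks of each list up to the number of the shortest, only CCND3 was higher (35.1% of genes). Scaled to covered length, CDKN2D alone was higher (16.4% of genes) and CDKN1B and CDKN2C were lower (25.0% of genes). Exact two-sided permutation tests of single genes cannot pass 0.05, since 2 of the 6 arrangements of 2 libraries against 2 are always at least as extreme.

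CDKN1A, at chr6:36676460-36687337 (ENSG00000124762.14), encodes p21, the Cip/Kip inhibitor induced by p53 and during myeloid maturation. Its H3K27ac covered 2898 and 3802 bp in Corin and 1106 and 2566 bp in DMSO. Both Corin libraries were the higher ones and the groups did not overlap. The means were 3350 ± 639 and 1836 ± 1032 bp (SD, n = 2 each), a difference of 1514 bp with a standard error (SE) of 651 (limma adjusted p = 0.189). With 1 library left out it ranged from 784 bp without DMSO replicate 1 to 2244 bp without DMSO replicate 2. Scaled to covered length the difference was -36.0 bp. A region from -2777 to -1934 bp, over another CDKN1A start, held 806 and 687 bp in Corin against 0 and 535 bp, and one from 3762 to 4353 bp held 547 and 592 bp against 383 and 0 bp. A region from -1708 to -1050 bp had a peak in all 4 lists, with 646 and 555 bp in Corin against 210 and 274 bp. Both Corin lists exceeded both DMSO lists in these 3 regions. The groups overlapped in the longest region, from -215 to 1896 bp over the canonical start, with 899 and 1968 bp in Corin against 513 and 1093 bp in DMSO. DMSO replicate 2 alone had peaks from -6559 to -6339 bp (221 bp) and from 1983 to 2425 bp (443 bp). H3K4me2 at CDKN1A covered 4738 and 4506 bp in Corin and 3790 and 4634 bp in DMSO, and H3K4me3 covered 1861 and 1836 bp against 1834 and 2060 bp. Neither separated the groups. The start of PANDAR and that of DINOL, non-coding RNA genes, lie in the same window, so peaks there cannot be assigned to CDKN1A alone.

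CDKN1B, at chr12:12685498-12722369, encodes p27, which holds cells out of S phase and is itself removed through SKP2. It was among the most broadly marked members. H3K27ac covered 9971 and 6989 bp in Corin and 7491 and 5654 bp in DMSO, a difference of 1908 bp (SE 1425, limma adjusted p = 0.389). Replicate 1 was higher than replicate 2 within each treatment and the groups overlapped. Between same-numbered libraries Corin was higher by 2480 and 1335 bp (adjusted p = 0.327 in the limma fit with the replicate number as a block). The difference of the means was 416.5 bp without Corin replicate 1, 989 bp without DMSO replicate 2 and 3398.5 bp without Corin replicate 2. Scaled to covered length it was -3470 bp. H3K4me2 was the exception in direction, with 9463 and 8881 bp in Corin against 9979 and 10000 bp in DMSO. Both Corin libraries were lower, by 818 bp on average (SE 519, limma adjusted p = 0.565), a difference of -526.5 bp without Corin replicate 2 and of -3223 bp when scaled to covered length (limma adjusted p = 0.125). Only 1 of the 8 members with an H3K4me2 peak was lower in both Corin lists, beside 3.91% of the 14250 genes with a peak. H3K4me3 covered 8644 and 8091 bp in Corin and 8463 and 8194 bp in DMSO, with overlap.

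H3K4me2 was set apart from the other marks at the CDKN1B start. In all 4 H3K4me2 lists the start itself was free of a peak. An upstream stretch ended between -248 and -98 bp, and the long stretch downstream began at 2029 and 2372 bp in Corin and at 1569 and 1849 bp in DMSO. Only DMSO replicate 2 had a peak between them, from 612 to 865 bp. H3K4me3 peaks covered the start in all 4 lists, from -1284 to 2974 bp in Corin replicate 1 and from -634 to 2992 bp in DMSO replicate 2, and ranked at or above the 99.3 percentile of the authors' peak score, which is used here within a list only. Of the H3K4me3 length within 2 kb, 34.9% and 25.9% lay under H3K4me2 in Corin and 47.5% and 45.8% in DMSO. Over all genes with H3K4me3 there, the medians were 81.3% and 77.7% in Corin, 74.7% in DMSO replicate 1 and the whole length in DMSO replicate 2. CDKN1B thus lay below these medians in each library, as did CDKN2C with 68.3% and 38.3% in Corin and 62.4% and 54.3% in DMSO. At CDKN1B H3K27ac, by contrast, covered the start in all 4 lists and lay over the whole H3K4me3 length within 2 kb in 3 of the 4 pairs of lists and over 90.3% in DMSO replicate 2. Within 2 kb, H3K4me2 covered 1862 and 1753 bp in Corin against 2315 and 2309 bp in DMSO, a difference of -504.5 bp (SE 173, limma adjusted p = 0.636). The 10 kb window, unlike that of 2 kb, also holds the start of APOLD1, whose own peaks enter its sum. Like that of CDKN1B, the CCND3 start was free of an H3K4me2 peak in both Corin lists and in DMSO replicate 1.

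CDKN1C, at chr11:2883213-2885775, encodes p57, an imprinted Cip/Kip inhibitor important in development and in resting stem cells. H3K4me2 lay over its start in all 4 lists, from -936 to 818 bp in DMSO replicate 2. It covered 3338 and 3498 bp within 10 kb in Corin and 2666 and 3318 bp in DMSO. Both Corin libraries were higher, by 426 bp (SE 332, limma adjusted p = 0.652), but scaled to covered length the difference was -340.5 bp. The unscaled difference was 100 bp without DMSO replicate 1 and 752 bp without DMSO replicate 2, and within 2 kb the groups overlapped. H3K4me3 was found in Corin replicate 2 alone, with 229 bp from -7175 to -6947 bp, too little for the test. H3K27ac covered 304 and 248 bp in Corin and 0 and 312 bp in DMSO, all of it upstream of -6525 bp in an intron of SLC22A18AS. A start with H3K4me2 at a high score percentile (95.1 to 98.8) and without H3K4me3 or H3K27ac within 2 kb was seen at no other member.

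CDKN2A, which encodes p16 and, from another start, ARF, and CDKN2B, which encodes p15, had no peak of any mark within 10 kb in any of the 12 lists. They share a locus at chr9:21967752-21995301 and chr9:22002903-22009305 on the minus strand. Of all genes, 5625 (28.1%) had no peak in all 12 lists. The stretch without a peak in any list ran over chr9:21902283-22159025, 256743 bp long, and held both genes and the non-coding CDKN2B-AS1 whole. It began inside MTAP, a neighbour that encodes an enzyme of adenine salvage. Each edge was set by 1 list of Corin replicate 1, with an H3K27ac peak of 236 bp and an H3K4me2 peak of 223 bp. In single lists the stretch without a peak around CDKN2A was longer, from 268.2 kb in H3K27ac Corin replicate 1 to 5058.3 kb in H3K27ac DMSO replicate 2. Within 10 kb of the MTAP start every list had peaks, with 262 to 838 bp of H3K27ac, 955 to 1897 bp of H3K4me2 and 1188 to 1433 bp of H3K4me3. DMRTA1 on the far side had 196 bp of H3K4me2 in Corin replicate 2 and no other peak. Peak lists hold no reads and no input library was analysed, so the copy number of this stretch in the line was not tested. Without peaks there was no change to test at either gene.

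**Figure D2:**
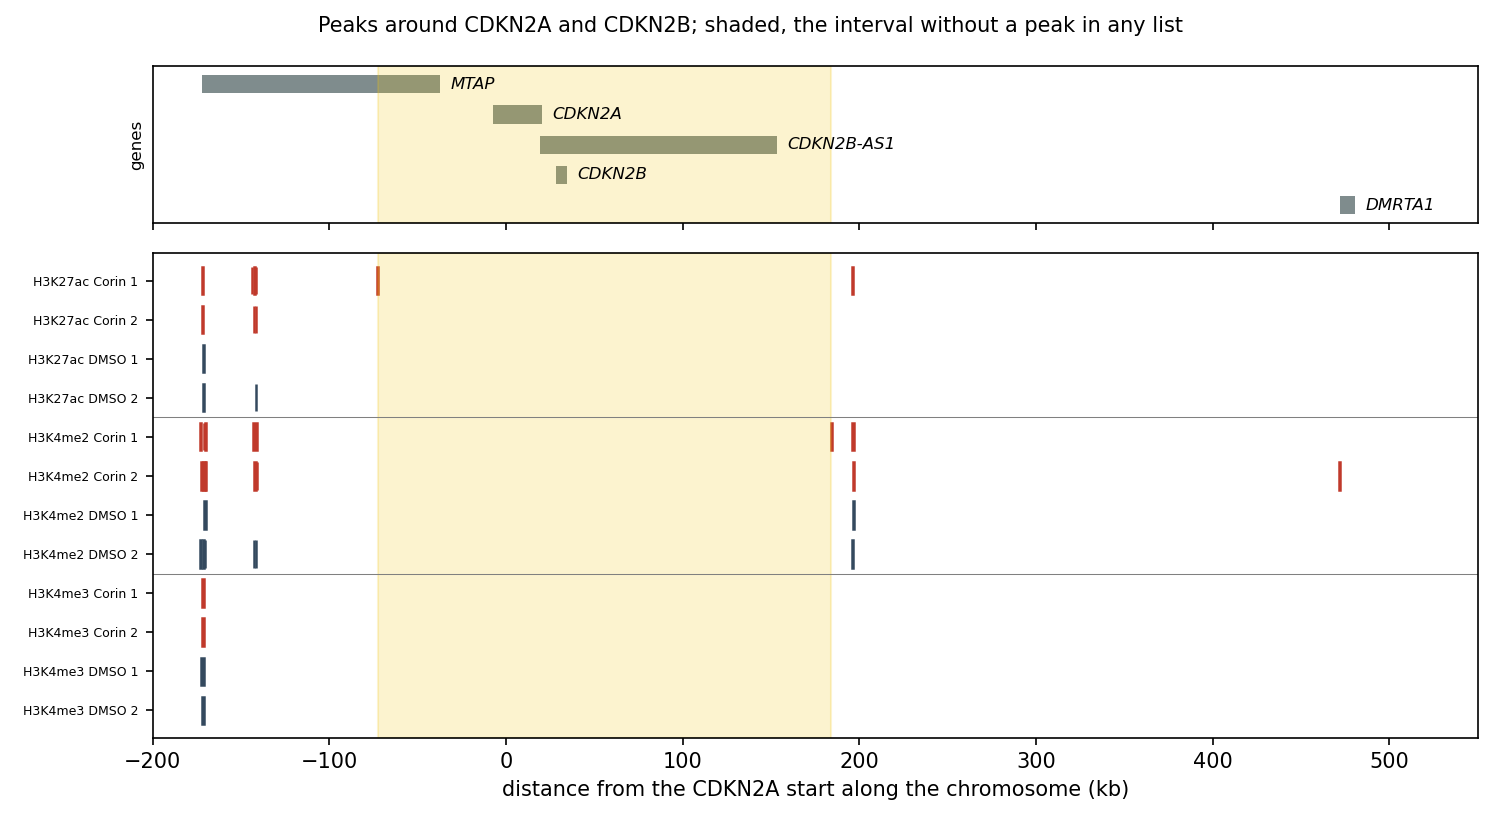
Peaks of the 12 lists around CDKN2A and CDKN2B, by distance from the CDKN2A start along the chromosome (kb, x axis). The upper panel shows gene bodies and the lower panel 1 row per list, Corin in red and DMSO in dark blue; bars are outlined and so look slightly wider than the peaks. The shaded 256.7 kb hold no peak in any list.

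CDKN2C, at chr1:50960745-50974634, encodes p18, an INK4 inhibitor that limits self-renewal of blood stem cells. It had the longest coverage of the 10 genes for each mark in DMSO. H3K27ac covered 13665 and 8245 bp in Corin and 10517 and 7310 bp in DMSO, a difference of 2042 bp (SE 2086, limma adjusted p = 0.519). As at CDKN1B, replicate 1 exceeded replicate 2 in both treatments and the groups overlapped, and the difference scaled to covered length was -5228 bp. Same-numbered libraries were higher in Corin by 3148 and 935 bp (adjusted p = 0.332 in the limma fit with the replicate number as a block). The unscaled difference was -668.5 bp without Corin replicate 1, 438 bp without DMSO replicate 2, 3645 bp without DMSO replicate 1 and 4751.5 bp without Corin replicate 2. H3K4me2 covered 13563 and 10558 bp in Corin against 13706 and 11687 bp in DMSO, and H3K4me3 10587 and 8982 bp against 10583 and 10091 bp. Both overlapped as well. H3K4me3 filled the 4001 bp within 2 kb of the start in all 4 lists, and its peak there stood at the 98.4 to 99.4 percentile of score, while the H3K4me2 peak over the start stood at only the 19.1 to 40.3 percentile. Another CDKN2C start, at -1539 bp, and that of ENSG00000290102, at -1693 bp, lie within 2 kb, so the coverage there cannot be assigned to 1 start. The start of FAF1 lies at -9978 bp, at the edge of the 10 kb window.

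CDKN2D, at chr19:10566460-10569059 on the minus strand, encodes p19, the INK4 inhibitor of CDK4 and CDK6 that is expressed in most tissues. Its H3K27ac covered 1723 and 1350 bp in Corin and 256 and 413 bp in DMSO. Both Corin libraries stood well above both DMSO libraries. The means were 1537 ± 264 and 335 ± 111 bp (SD, n = 2 each), a ratio of 4.59 and a difference of 1202 bp (SE 314, limma adjusted p = 0.0985). With the replicate number as a block the adjusted p was 0.0113 (SE 362), in a fit that called 17.5% of the 9199 genes higher. It was the only member that passed in that fit, the others having adjusted p from 0.069 to 0.729. CDKN2D was also the only member that stayed higher after scaling to covered length (673 bp). At matched peak number it was no longer separated, with 1053 and 0 bp in Corin against 256 and 413 bp, a difference of 192 bp.

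The H3K27ac at CDKN2D lay in 3 places, seen in the map of peaks around the start. Just upstream, a region from -787 to 31 bp held 819 and 418 bp in Corin and 0 and 413 bp in DMSO. Inside the gene, a region from 1800 to 2258 bp (chr19:10566721-10567179, exonic) held 234 and 423 bp in Corin and none in either DMSO list. It was the only region within 10 kb of any member that both Corin and neither DMSO list had, whereas 11.5% of all 41575 H3K27ac regions were of this kind. At matched peak number 0 such regions remained within 100 kb of the members. Further downstream, a region from 3096 to 4124 bp in KRI1 held 670 and 509 bp in Corin against 256 and 0 bp, and the start of KRI1 at 2953 bp adjoins it. H3K4me2 at CDKN2D was already long, with 5683 and 5387 bp in Corin and 4839 and 5136 bp in DMSO, higher in both Corin libraries by 548 bp (SE 371, limma adjusted p = 0.593) with a scaled difference of -747.7 bp. H3K4me3 covered 3076 and 2941 bp in Corin against 2654 and 2701 bp in DMSO. It too was higher in both Corin libraries, by 331 bp (SE 150, limma adjusted p = 0.778), and stayed higher by 173 bp after scaling. Of the 7 members with a peak of each mark, CDKN2D was the 1 at which both Corin libraries exceeded both DMSO libraries for all 3 marks, beside 8.81% of the 9945 genes with a peak of each. This did not hold under other settings: scaled H3K4me2 was lower in both Corin lists, and within 2 kb H3K4me2 overlapped, with 3174 and 3286 bp in Corin against 2785 and 3204 bp. H3K27ac overlapped at matched peak number, as given above.

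**Figure D3:**
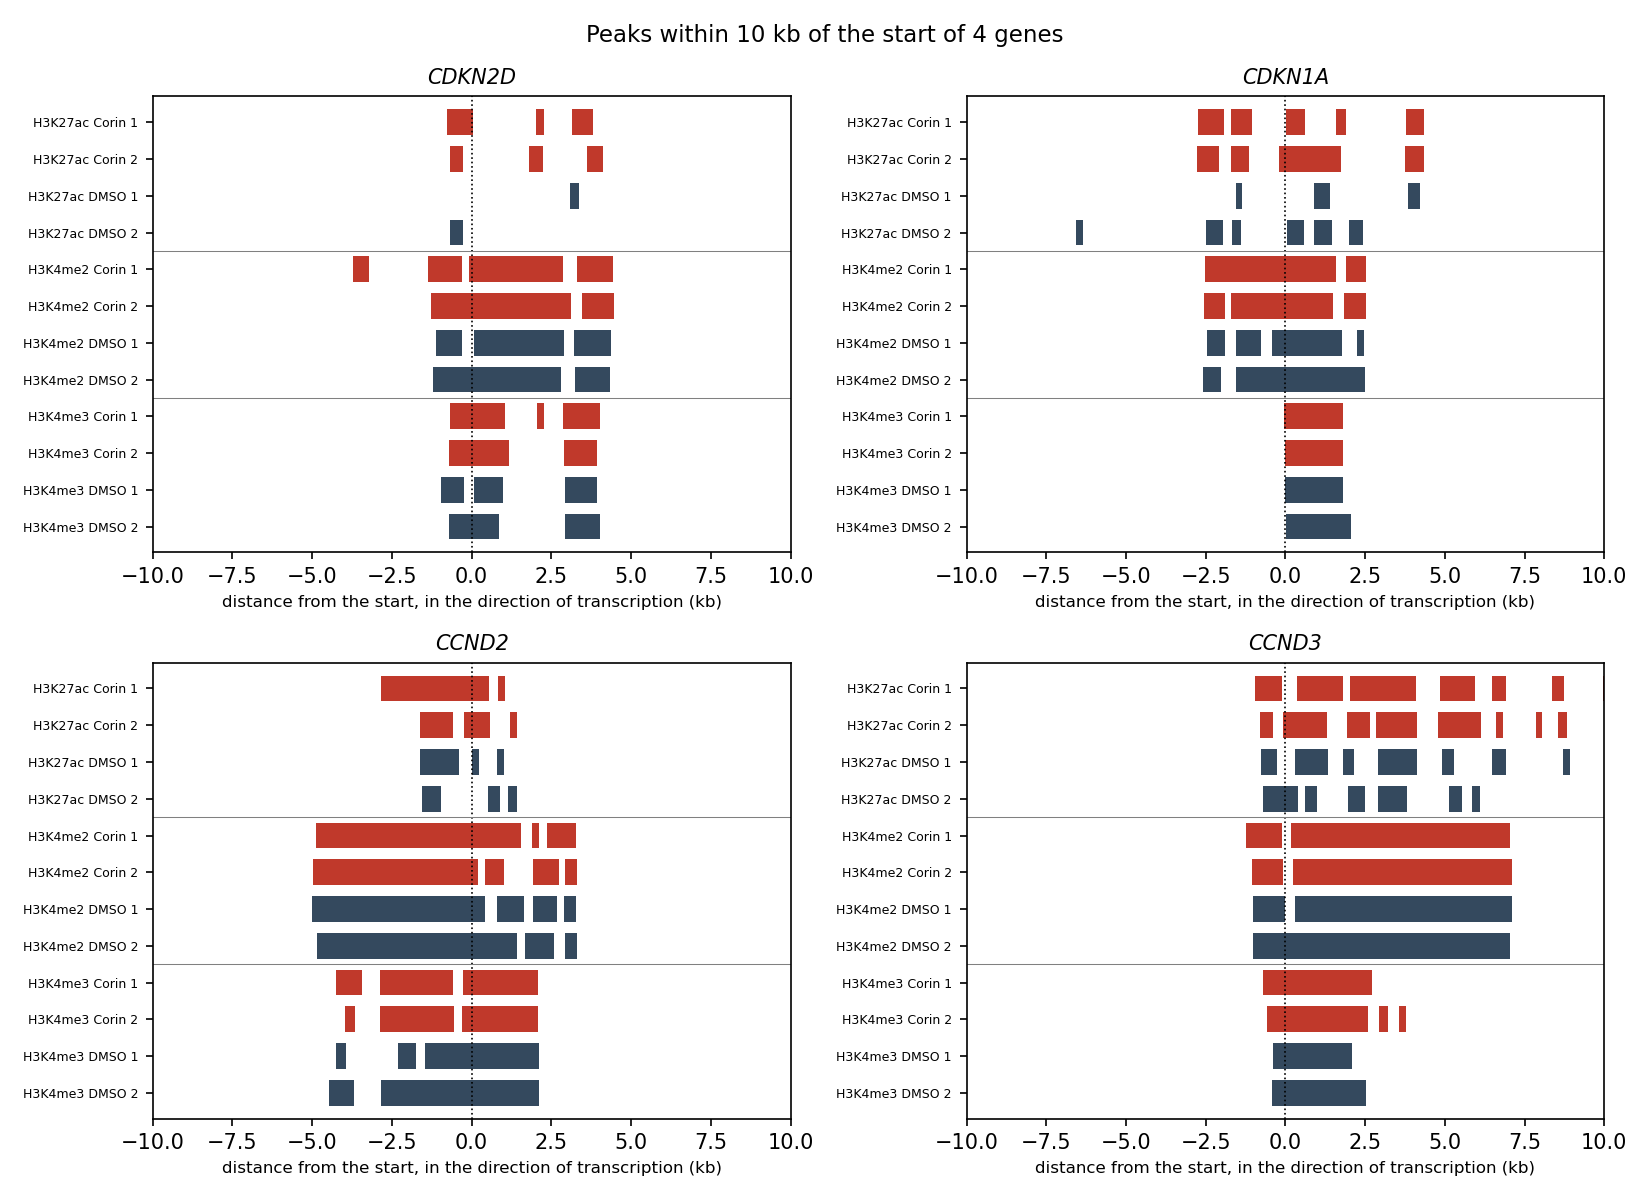
Peaks within 10 kb of the start of CDKN2D, CDKN1A, CCND2 and CCND3, by distance in the direction of transcription (kb, x axis), 1 row per list, Corin in red and DMSO in dark blue. At CDKN2D the H3K27ac lists of Corin have 3 peaks each and those of DMSO 1 each.

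CCND1, at chr11:69641156-69654474, encodes cyclin D1, the D cyclin of many epithelial cells. No H3K27ac peak lay within 10 kb of its start in any list, before or after Corin. H3K4me2 covered 4047 and 3723 bp in Corin and 3708 and 3454 bp in DMSO. Both Corin libraries were higher by 304 bp on average (SE 314, limma adjusted p = 0.754), and scaled to covered length the difference was -631.3 bp. As deposited it was 142 bp without Corin replicate 1, 177 bp without DMSO replicate 2 and 466 bp without Corin replicate 2. H3K4me3 covered 2230 and 2240 bp in Corin and 1997 and 2219 bp in DMSO, higher by 127 bp (SE 142, limma adjusted p = 0.923) and by 9.35 bp when scaled. The unscaled difference was 16.0 bp without DMSO replicate 1 and 238 bp without DMSO replicate 2. Its H3K4me3 began 19 to 63 bp after the start and ranked at the 22.4 to 39.3 percentile of score, against 87.6 to 94.2 at CDKN1A. All H3K4me3 within 2 kb lay under H3K4me2 in 3 of the 4 pairs of lists, and 90.2% in Corin replicate 2.

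CCND2, at chr12:4269771-4305353, encodes cyclin D2, a D cyclin of blood cells induced by cytokine signals. H3K27ac covered 3588 and 2036 bp in Corin and 1654 and 1278 bp in DMSO. The Corin libraries were the higher pair, though replicate 2 of Corin lay nearer to DMSO than to replicate 1. The difference was 1346 bp (SE 591, limma adjusted p = 0.194) and -109.3 bp when scaled. It was 570 bp without Corin replicate 1 and 2122 bp without Corin replicate 2. Over the start itself an H3K27ac peak was present in both Corin lists, from -2842 to 543 bp and from -233 to 572 bp, while the nearest peaks of DMSO began 12 and 499 bp after it. H3K4me2 covered 7612 and 6966 bp in Corin against 7404 and 7546 bp in DMSO, and H3K4me3 5491 and 5026 bp against 4441 and 5762 bp. Both overlapped. The start of ENSG00000285901 coincides with that of CCND2 and CCND2-AS1 begins within the window.

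CCND3, at chr6:41934934-42050357 on the minus strand, encodes cyclin D3, a D cyclin of blood cells. H3K27ac covered 6338 and 5868 bp in Corin and 4132 and 3581 bp in DMSO, with a wide gap between the groups. The means were 6103 ± 332 and 3857 ± 390 bp (SD, n = 2 each), higher by 2247 bp (SE 815, limma adjusted p = 0.147). At matched peak number both Corin libraries stayed higher, with 5922 and 5372 bp against 4132 and 3581 bp. Scaled to covered length the difference was -1081 bp. Around the 5′ end of the gene record, another start far upstream, the unscaled difference was 233.5 bp for H3K27ac, 73.5 bp for H3K4me3 and 1706.5 bp for H3K4me2 (limma adjusted p = 0.14), the last against -6.0 bp around the canonical start. Most of the added length lay inside the gene: a region from 4786 to 6137 bp held 1104 and 1352 bp in Corin against 379 and 655 bp, and one from 1807 to 4141 bp held 2080 and 2010 bp against 1540 and 1447 bp. Both regions had a peak in all 4 lists, so the difference there was in covered length, not in presence.

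At the same gene H3K4me3 covered 3430 and 3683 bp in Corin against 2479 and 2938 bp in DMSO. Both Corin libraries were higher, by 848 bp (SE 222, limma adjusted p = 0.539), and by 683 bp after scaling. With the replicate number as a block the adjusted p was 0.306. The H3K4me3 peak over the start reached from -703 to 2726 bp and from -592 to 2579 bp in Corin, and from -381 to 2097 bp and from -413 to 2524 bp in DMSO, so it ended further out on both sides in Corin. H3K4me2 formed the broadest domain, with 8002 and 7854 bp in Corin and 7805 and 8063 bp in DMSO. As deposited, that domain did not separate the groups around the canonical start. After scaling it was lower in both Corin lists, with 6737 and 7429 bp against 9311 and 8796 bp, a difference of -1970 bp (limma adjusted p = 0.169). As the difference before scaling was only -6.0 bp, this drop was fixed by the scaling.

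**Figure D4:**
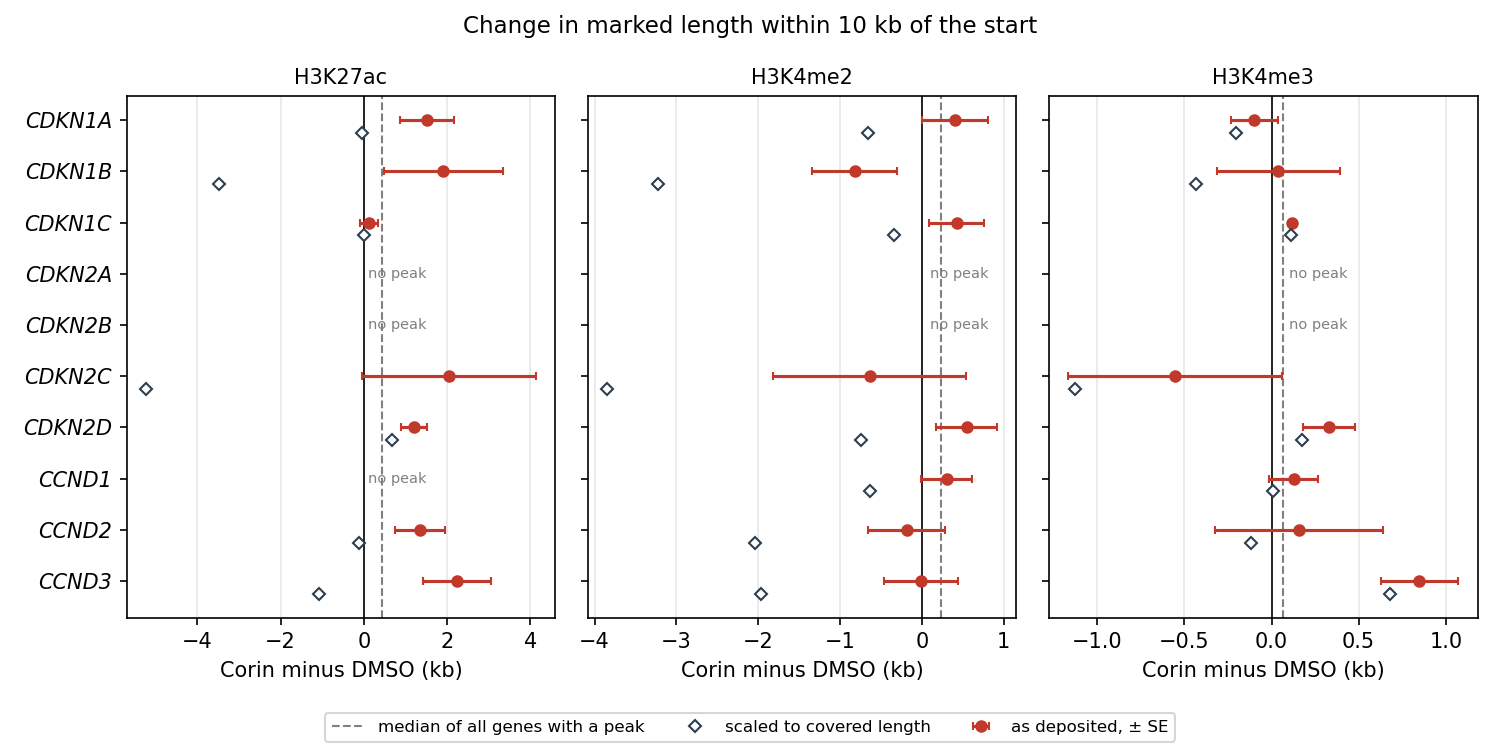
Corin minus DMSO in length under peaks within 10 kb (kb, x axis, a separate scale in each panel) for the 10 genes (y axis). Filled points are the change as deposited with the limma SE, diamonds the change after scaling each list to the same covered length, and the dashed line is the median over genes with a peak. The CDKN1C point for H3K4me3 has no SE because the gene was below the 200 bp filter. For H3K27ac 7 points lie right of 0, and 1 diamond, that of CDKN2D, does.

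Across the members, H3K4me2 was higher in both Corin lists at 3 of 8 with a peak (CDKN1C, CDKN2D and CCND1), beside 39.6% of genes. Scaled to covered length, 0 were higher and 7 lower (CDKN1C overlapped), beside 9.66% and 46.1% of genes. The limma fit called 21 of 13752 genes (0.153%) and no member, and with the replicate number as a block 648 genes and no member. Without the block, 2002 genes (14.6%) and 0 of the 8 members had an unadjusted p below 0.05. Members with higher H3K4me3 were also 3 of 8 (CDKN2D, CCND1 and CCND3), beside 25.8% of the 11398 genes with a peak, and 0 were lower, beside 8.39%. Scaled to covered length, 2 were higher (CDKN2D and CCND3) and 1 lower (CDKN1A), for which the share of all genes was not computed. For that mark the limma fit called none of the 10925 genes tested (0.0%), with 762 genes (6.97%) and 1 of the 7 members tested at an unadjusted p below 0.05. Median changes over the 10 members were 0 bp for H3K4me2 and 76.75 bp for H3K4me3, against 61.5 and 0 bp over all genes and 230 and 63.5 bp over genes with a peak.

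Whether the marks responded differently was tested in 1 limma fit over the 12 libraries. For H3K27ac against H3K4me2, 1.84% of 13187 genes passed, for H3K27ac against H3K4me3 0.516% and for H3K4me2 against H3K4me3 2.21%. No member passed in any of the 3. The member nearest to passing was CCND3, whose H3K27ac change exceeded its H3K4me2 change by 2253 bp (SE 578, limma adjusted p = 0.0861). At CDKN2D the H3K27ac change exceeded the H3K4me2 change by 655 bp (SE 381, adjusted p = 0.474).

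Regions of H3K27ac that both Corin lists and neither DMSO list had were also counted within 100 kb of the starts, promoters included. There were 8 among 102 regions, beside 11.5% of all 41575 regions, and 0 that both DMSO lists alone had, beside 0.18%. With a library left out the 8 became 13 without DMSO replicate 2, 14 without DMSO replicate 1, 23 without Corin replicate 1 and 36 without Corin replicate 2, and the 0 became 3 without DMSO replicate 1 and 1 without DMSO replicate 2. CDKN1A had 3, CCND2 2, and CDKN1B, CDKN2D and CCND3 1 each. H3K4me2 had 3 such regions among 75 (9.64% of all 42421), 2 of them at CDKN1A and 1 at CCND3, and 1 that both DMSO lists alone had (0.158% of all), at -12595 bp of CDKN2D in AP1M2. With a library left out the 3 became 6 without Corin replicate 1 or DMSO replicate 2 and 11 without Corin replicate 2, and the 1 became 2 without Corin replicate 1 and 4 without DMSO replicate 1. H3K4me3 had 0 of either kind among 38 (1.5% and 0.29% of all 12089), which became 3 and 1 without Corin replicate 1 and 4 and 1 without Corin replicate 2. The share of all regions was not computed with a library left out. At matched peak number H3K27ac had 0 that Corin alone had and 1 that DMSO alone had.

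The 2 widest of these H3K27ac regions are shown as examples of distal sequence marked in both Corin lists, each by its central 300 bases on the plus strand of hg38. The CDKN1A region, chr6:36649668-36650389, lies in intergenic sequence from -29046 to -28325 bp and held 663 and 384 bp in Corin. The CCND2 region, chr12:4289203-4289841, is intronic, from 15441 to 16079 bp, and held 213 and 639 bp. The bases shown are chr6:36649879-36650178 and chr12:4289372-4289671.
CDKN1A distal: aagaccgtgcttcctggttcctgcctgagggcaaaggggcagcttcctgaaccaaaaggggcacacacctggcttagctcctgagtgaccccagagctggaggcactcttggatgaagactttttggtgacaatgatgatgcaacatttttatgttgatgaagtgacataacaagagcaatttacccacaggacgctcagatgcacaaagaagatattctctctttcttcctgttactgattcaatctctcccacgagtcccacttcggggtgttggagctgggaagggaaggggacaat
CCND2 distal: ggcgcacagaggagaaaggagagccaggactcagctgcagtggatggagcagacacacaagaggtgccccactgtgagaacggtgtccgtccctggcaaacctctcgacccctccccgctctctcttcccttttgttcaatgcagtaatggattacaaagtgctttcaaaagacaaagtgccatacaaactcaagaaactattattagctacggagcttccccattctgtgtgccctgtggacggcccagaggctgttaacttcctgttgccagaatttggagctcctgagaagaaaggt
Neither holds any of the 6 motifs searched, so no base is in capitals. These were the GC box, the CCAAT box, the E-box CACGTG, the STAT motif TTCNNNGAA, the GFI1 core AATCAC and the PU.1 motif GAGGAAG. Among the central 300 bases of the 8 regions, TTCNNNGAA was in 1, at CDKN1B, and GAGGAAG in 1, at CDKN1A, against 8.07% and 14.8% of all H3K27ac regions. A GC box was in 0 of the 8 and in 19.4% of all. An H3K4me2 region from -27896 to -27416 bp of CDKN1A, with 451 and 203 bp in Corin and none in DMSO, lay close to the CDKN1A region shown.

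The wider G1/S machinery was read from a list of 25 other genes, among them CDK2, CDK4, CDK6, cyclins E and A, the retinoblastoma family, the E2F factors and SKP2. None passed the test for any mark. For H3K27ac 11 of the 23 with a peak were higher in both Corin lists and 0 lower, beside 54.6% and 0.591% of all genes with a peak. The median change over the 25 was 363 bp, against 445 bp over genes with a peak. E2F1, the activating partner released from the retinoblastoma protein, had 2842 and 868 bp in Corin and 413 and 0 bp in DMSO (limma adjusted p = 0.147). CCNE2, a cyclin E that activates CDK2, had 2396 and 781 bp against 0 and 604 bp (limma adjusted p = 0.178). At both genes Corin replicate 1 was far above the other 3 libraries.

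H3K4me2 was higher at 10 of these 25 genes and lower at 3, beside 39.6% and 3.91% of genes with a peak. The median change was 117.5 bp, against 230 bp over those genes. CDK4, the kinase that D cyclins activate, had 6657 and 5964 bp in Corin and 4637 and 5398 bp in DMSO. E2F2 had 4843 and 5141 bp against 3754 and 3877 bp. The lower ones included CKS1B, a cofactor in p27 turnover, with 5179 and 4449 bp against 5389 and 5665 bp, and CUL1, a scaffold of the ligase that removes p27, with 2556 and 2643 bp against 2934 and 3598 bp. Their limma adjusted p ranged from 0.194 at E2F2 to 0.522 at CKS1B.

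H3K4me3 was higher at 5 and lower at 2, beside 25.8% and 8.39% of genes with a peak, with a median change of 55.5 bp against 63.5 bp over those genes. E2F3 had 3942 and 3973 bp in Corin against 3650 and 3567 bp, and CCNE1 1754 and 1833 bp against 1202 and 1693 bp. CCNH, the cyclin partner of CDK7, was lower, with 1095 and 1128 bp against 1352 and 1247 bp, as was TFDP2, a dimer partner of E2F factors, with 301 and 353 bp against 437 and 486 bp. The largest of these 4 differences was 349 bp, at E2F3, with a limma adjusted p of 0.805.

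For the 8 members with a peak in at least 6 lists, the genes most alike over the 12 libraries were found by the mean absolute difference in bp. CDKN1A was closest to ANXA9 (268 bp), CDKN1B to ANXA2R (921 bp) and CDK6 (942 bp), CDKN1C to HELZ2 (117 bp) and CDKN2C to COMMD3-BMI1 (843 bp). CDKN2D was closest to ESYT1 (188 bp) and ZNF584 (218 bp), CCND2 to EMC9 (408 bp) and CCND3 to NUP210 (463 bp). CCND1 was closest to PITPNM1 and CDK2AP2, both at 109 bp. The second genes of the remaining members were RNF138 for CDKN1A (335 bp), SAMD4A for CDKN1C (140 bp), COMMD3 for CDKN2C (859 bp), FASTK for CCND2 (463 bp) and PARVG for CCND3 (512 bp).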

How the data were processed

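MOLM-13 libraries made with a commercial CUT&RUN kit were analysed from peak lists, 1 per library. Per the submitters' processing notes, Trim Galore, Bowtie2, Picard and MACS2 were used with build GRCh38 (hg38); versions, calling threshold and control are not given in the sources used here. The deposited lists give chromosome, start, end and a score, which the authors do not define and which is at least 50 in each list. It served only to order peaks inside 1 list. No end among the 292523 peaks exceeded its hg38 chromosome length. Lists hold no counts, so no interval that needs depth was computed.

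Peaks that touch were merged, and bp under peaks were summed within 10 kb of the start of the Ensembl canonical transcript (GENCODE 44) of 20007 protein-coding genes. Neighbouring windows can overlap. limma 3.58.1 (R 4.3.3) with a trend was fitted per mark to genes with a mean of at least 200 bp, with Benjamini-Hochberg adjustment over all of them; the fit was tested on simulated data. A region was the union of the 4 lists of a mark, and 1 shared bp was enough for a library to have it. Python 3.11.15 was used elsewhere.

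Same-numbered Corin and DMSO libraries deviated together from their group means (correlations 0.223, 0.237 and 0.211 over 20007 genes for H3K27ac, H3K4me2 and H3K4me3), so a replicate block was fitted beside the main design. What same-numbered libraries share is not stated. The members, the gene lists, the motifs and the markers were chosen with earlier results of these data known. Named genes were the 10 members, the 2 largest rises and falls per mark among the G1/S genes whose groups did not overlap, the genes beside CDKN2A, and the 2 genes most alike to each member. The sequences shown and the regions described inside members were chosen after their values were seen. Alternatives were windows of 2 and 5 kb, matched peak number, a score of at least 100, scaling to covered length, log2(bp + 100), the 5′ end of the gene record, no filter, no trend, the block, overlap of 50% and leaving out each library.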

Additional observations from a re-analysis of the deposited data

How the results depend on the processing

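Read depth is unknown, so a missing peak is not evidence of a missing mark, and 2 libraries per group limit every test. Scaling sets the covered length of the lists equal by construction, whereas matched peak number sets only their number of peaks equal. The cause of each shift was not tested. H3K27ac calls over all genes went from 0 to 91 without the trend and to 1609 with the replicate block. H3K4me2 calls went from 21 to 0 in the 2 kb and 5 kb windows, at matched peak number, at a score of at least 100, on the log2 scale and without any 1 of the 4 libraries, to 48 when scaled, to 47 at the 5′ end of the gene record, to 3 without the trend and to 648 with the replicate block. The replicate block brought CDKN2D H3K27ac (1202 bp) past the threshold, adjusted p = 0.0113, and changed no other member's call. Members separated for H3K27ac went from 4 to 1 at matched peak number and to between 4 and 7 with a library left out (7 without DMSO replicate 1). For H3K4me2 they went from 4 to 1 within 2 kb, to 7 when scaled and to between 5 and 7 with a library left out (7 without DMSO replicate 2), and for H3K4me3 from 3 to between 5 and 6 with any of the 4 libraries left out (6 without Corin replicate 1). H3K27ac regions gained went from 8 to 13 at 50% overlap, to 0 at matched peak number and to between 13 and 36 with a library left out (36 without Corin replicate 2). H3K4me2 regions gained went from 3 to 1 at matched peak number and to between 3 and 11 (11 without Corin replicate 2), and H3K4me3 regions from 0 to between 0 and 4 (4 without Corin replicate 2, 3 without Corin replicate 1). With a library left out, 1 library against 2 separates more readily by design. The share of all genes or regions was not computed there, so those counts are no result about the members. No difference between marks was called at a member with the replicate block or at matched peak number.

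Single member values kept their direction and side of the threshold in 180 of 212 alternatives and reversed in 30. H3K4me3 at CDKN2C went from -552.5 to 0 bp within 2 kb. Scaled to covered length, H3K27ac became -36.0 bp at CDKN1A, -3470.4 at CDKN1B, -7.51 at CDKN1C, -5228.1 at CDKN2C, -109.3 at CCND2 and -1081.3 at CCND3, H3K4me2 became -662.6 at CDKN1A, -340.5 at CDKN1C, -747.7 at CDKN2D and -631.3 at CCND1, and H3K4me3 became -432.7 at CDKN1B and -117.0 at CCND2. H3K4me2 at CCND3 became 1706.5 bp at the 5′ end of the gene record. Within 2 kb H3K4me3 became -7.5 bp at CDKN1B and -133.0 at CCND2, and at a score of at least 100 it became -98.5 at CCND2. With a library left out, H3K27ac ranged from -36.0 to 148.0 bp at CDKN1C and from -668.5 to 4751.5 at CDKN2C. H3K4me2 ranged from -12.0 to 832.0 bp at CDKN1A, from -2138.5 to 866.5 at CDKN2C, from -509.0 to 137.0 at CCND2 and from -135.0 to 123.0 at CCND3. H3K4me3 ranged from -211.5 to 14.5 bp at CDKN1A, from -237.5 to 315.5 at CDKN1B, from -1355.0 to 250 at CDKN2C and from -503.5 to 817.5 at CCND2. Without a reversal, matched peak number moved H3K27ac to 901.5 bp at CDKN1A, 1201.5 at CDKN1B, 1224.5 at CDKN2C, 192 at CDKN2D and 842 at CCND2. Scaling moved H3K4me2 to -3222.9 bp at CDKN1B, -3847 at CDKN2C, -2033.3 at CCND2 and -1970.4 at CCND3, and H3K4me3 to -201.4 at CDKN1A and -1130.7 at CDKN2C. A score of at least 100 moved H3K27ac to 740.5 bp at CDKN2D and 3425 at CCND3. All these members had adjusted p above 0.05 in the fit reported.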
